A study of Rattus norvegicus with 10 samples.

Results

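The 10 genes described here encode immediate early and stress-induced transcription factors and were followed in kidneys of choline-deficient rats, namely Atf3, Fos, Fosl1, Jun, Junb, Egr1, Egr2, Nr4a2, Klf6 and Myc. They were taken by symbol, 10 of the 14506 genes that the platform annotation names on the array, and each had 1 probe set among the 29214. The arrays measured total kidney RNA of male weanling Wistar rats killed after 6 days on 1 of 4 diets, in 10 pools of 3 animals, with 2 pools a group. The control vegetable oil kidneys came from a choline-supplemented diet with corn and hydrogenated oils, and the control fish oil kidneys from a choline-supplemented diet with menhaden oil. The deficient fish oil kidneys came from a choline-deficient diet with menhaden oil. The choline-deficient vegetable oil diet gave 2 groups, the necrotic kidneys, so named by the labels, and kidneys without that word, called early here. Both were taken on the same day, so early names the state of the tissue and not a time. How animals were sorted into these pools is not stated. The word stage is used for these 2 states, and a rise or fall between them means higher or lower in the necrotic group. Pentobarbital was the anaesthetic in all groups.

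Immediate early genes are switched on within minutes of a stimulus, without new protein synthesis, by MAP kinases and the transcription factors they phosphorylate, among them serum response factor and CREB. FOS and JUN proteins pair through leucine zippers to form AP-1, the EGR proteins bind GC-rich DNA through zinc fingers, and ATF3 is a bZIP factor induced by many kinds of cell stress. In the kidney these genes are known to respond to ischemia and toxins.

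Promoters were available from RefSeq (GRCr8, 250 bases before to 50 after the start of the gene) for 6 of the 10 genes, namely Fosl1, Junb, Egr1, Egr2, Nr4a2 and Klf6. They were searched on both strands for the CArG box, which serum response factor binds, for the CRE TGACGTCA, the AP-1 element TGANTCA, the EGR element GCGGGGGCG, the STAT element TTCNNNGAA and the TATA box TATAAA. Of the 6 promoters 3 held a CArG box, against 1.64% of the 33469 promoters of that length. Egr1 had it at -105 and -83, Egr2 at -83 and Klf6 at -201, counted from the start of the gene to the first base of the match. The TATA box, in 14.2% of all promoters, was found in Junb at -49. The CRE, AP-1, EGR and STAT elements were in 0 of the 6 windows, against 1.83%, 7.33%, 2.73% and 8.87% of all promoters. No searched elements overlapped in these windows. A match describes letters only. Printed below are a pair of promoters with a CArG box (Egr2 at chr20:21054392-21054691, minus strand, and Klf6 at chr17:69458429-69458728, minus strand), one of a gene that rose without that box in the window (Junb at chr19:40080876-40081175, plus strand), and that of the gene that passed no test (Nr4a2 at chr3:62104838-62105137, minus strand), with the matches in capitals.
Egr2: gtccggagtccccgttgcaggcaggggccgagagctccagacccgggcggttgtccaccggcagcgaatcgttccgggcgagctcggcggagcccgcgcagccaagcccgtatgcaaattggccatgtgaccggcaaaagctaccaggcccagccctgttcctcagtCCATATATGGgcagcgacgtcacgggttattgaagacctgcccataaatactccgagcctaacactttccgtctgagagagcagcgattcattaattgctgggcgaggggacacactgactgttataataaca
Klf6: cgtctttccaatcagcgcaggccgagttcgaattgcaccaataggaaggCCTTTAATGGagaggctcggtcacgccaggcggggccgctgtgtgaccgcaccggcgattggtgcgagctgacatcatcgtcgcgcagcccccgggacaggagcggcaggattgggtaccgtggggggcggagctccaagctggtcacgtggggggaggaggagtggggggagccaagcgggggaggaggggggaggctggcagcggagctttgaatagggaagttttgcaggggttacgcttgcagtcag
Junb: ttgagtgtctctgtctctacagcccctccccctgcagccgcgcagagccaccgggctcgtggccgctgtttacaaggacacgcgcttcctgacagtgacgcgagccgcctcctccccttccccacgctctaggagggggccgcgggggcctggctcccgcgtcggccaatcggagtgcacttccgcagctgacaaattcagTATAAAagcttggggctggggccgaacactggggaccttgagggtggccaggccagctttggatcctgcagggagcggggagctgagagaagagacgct
Nr4a2: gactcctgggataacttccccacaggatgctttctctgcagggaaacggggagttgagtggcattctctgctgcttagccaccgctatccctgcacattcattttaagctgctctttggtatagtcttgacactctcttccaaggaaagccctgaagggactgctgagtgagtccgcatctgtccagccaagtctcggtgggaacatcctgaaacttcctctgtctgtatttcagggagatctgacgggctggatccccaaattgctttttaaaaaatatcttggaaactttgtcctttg

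The early kidneys had higher levels of the stress and AP-1 genes than the control vegetable oil kidneys, and the necrotic kidneys had them too, except that Atf3 was lower there than in the early kidneys. Without choline under fish oil no gene of the set passed the test. In the early kidneys 7 of the 10 genes rose and 0 fell at an adjusted p under 0.05, against 0.893% of all probe sets that rose and 0.236% that fell. In the necrotic kidneys 8 rose and 0 fell, against 10.2% and 10.7% of all probe sets. In 9 genes both early arrays lay above both controls, and in 9 both necrotic arrays did, against 25.7% and 35% of all probe sets. The median log2 difference of the 10 genes was 1.62 in the early and 1.43 in the necrotic kidneys, against medians of 0.01 and 0.06 over all probe sets. Both comparisons use the same control arrays. The 10 genes were chosen with earlier results of these data known, so the comparison with all probe sets is a description only. All values are log2 intensities, differences are on the log2 scale with moderated standard errors from limma (2 pools a group), and levels of different probe sets cannot be ranked against each other. RNA came from whole kidney, so fewer cells of a type and less RNA per cell cannot be told apart.

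**Figure D1:**
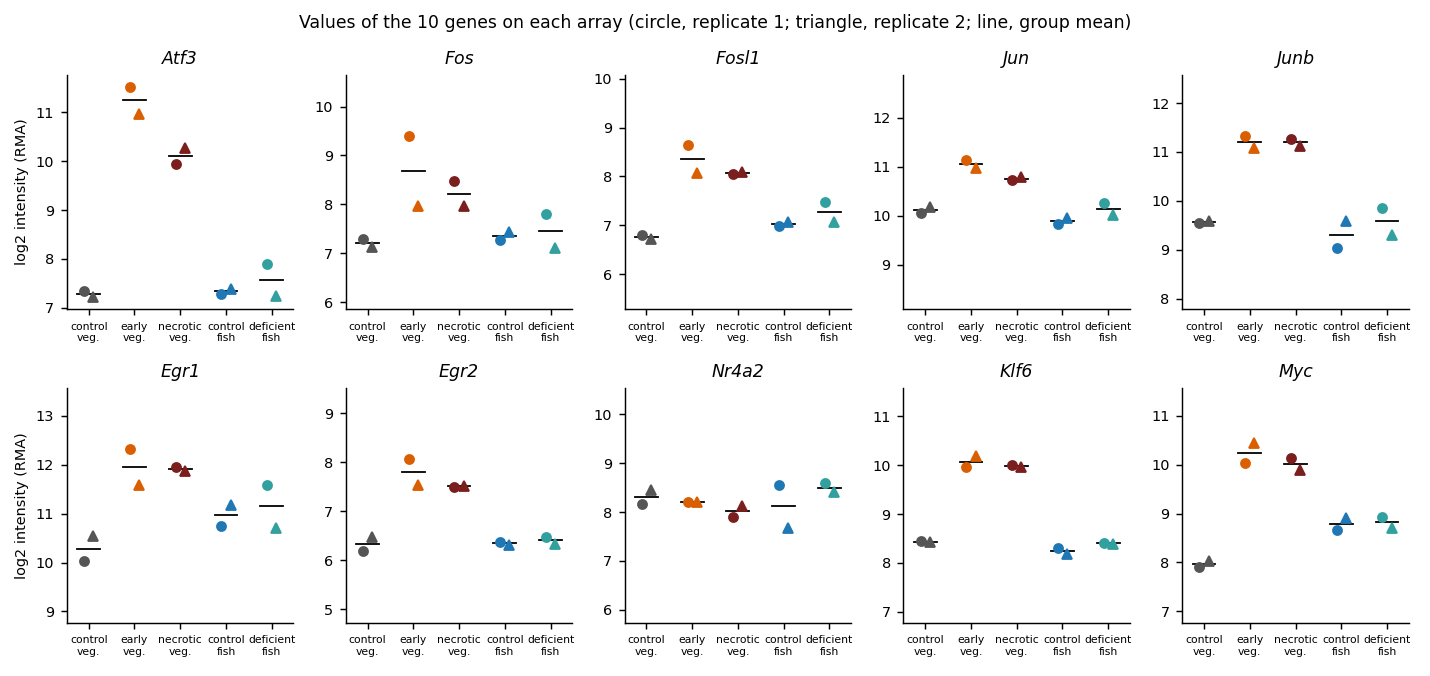
Log2 intensity (vertical axis) of each of the 10 genes on the 10 arrays by group (horizontal axis), with circles for replicate 1, triangles for replicate 2 and a line at the group mean; every panel spans the same log2 range. For 9 genes both early and both necrotic arrays lie above both control vegetable oil arrays, and Nr4a2 does not follow them.

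Atf3, a repressor and activator of stress genes, had the largest difference of the set. Its level (probe set 10770710) was 7.35 and 7.22 on the control vegetable oil arrays, 11.52 and 10.97 on the early arrays, and 9.94 and 10.27 on the necrotic arrays. It was 7.29 and 7.39 on the control fish oil arrays and 7.89 and 7.24 on the deficient fish oil arrays. The 3 highest groups did not overlap, with early above necrotic and necrotic above deficient fish oil, while deficient and control fish oil overlapped. Atf3 rose by 3.96 ± 0.24 in the early kidneys, 15.6-fold (adjusted p = 0.000471), and by 2.82 ± 0.24 in the necrotic kidneys, 7.05-fold (adjusted p = 0.00017). Between the stages it fell by 1.14 ± 0.24 (2.21-fold, adjusted p = 0.0221).

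Among the partners of AP-1, Junb and Jun rose in both stages and Fos did not pass the test in either. Junb (probe set 10806585) lay at 9.54 and 9.58 in control, 11.33 and 11.08 in early, and 11.27 and 11.13 in necrotic vegetable oil kidneys. The fish oil arrays had 9.04 and 9.59 with choline and 9.85 and 9.31 without it. Early and necrotic arrays overlapped in Junb and stood clear of the other 6, at 1.64 ± 0.22 above control in each (adjusted p = 0.0133 and 0.00135). Jun (probe set 10878112) was at 10.06 and 10.17 in control, 11.15 and 10.98 in early, 10.72 and 10.79 in necrotic, 9.83 and 9.96 in control fish oil and 10.27 and 10.01 in deficient fish oil kidneys. It had the smallest rise of those that passed, 0.94 ± 0.13 in early (adjusted p = 0.0146) and 0.64 ± 0.13 in necrotic kidneys (adjusted p = 0.00904). Its early arrays both lay above the necrotic ones, a difference of -0.30 ± 0.13 that did not pass (adjusted p = 0.202).

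Fos, the classic partner of JUN, was unequal between pools. Its level (probe set 10886031) was 7.29 and 7.14 in control, 9.40 and 7.96 in early, 8.47 and 7.97 in necrotic, 7.28 and 7.44 in control fish oil and 7.79 and 7.11 in deficient fish oil kidneys. Early replicate 1 was the highest array and early replicate 2 was level with necrotic replicate 2. The difference was 1.47 ± 0.42 in early (adjusted p = 0.165) and 1.01 ± 0.42 in necrotic kidneys (adjusted p = 0.132). Without early replicate 2 the early difference was 2.19 and passed (adjusted p = 0.0341). Fosl1, which encodes the longer-lived FRA1, rose by 1.61 ± 0.20 in early and 1.31 ± 0.20 in necrotic kidneys (adjusted p = 0.00833 and 0.00231). Its arrays (probe set 10713045) read 6.80 and 6.72 in control, 8.65 and 8.07 in early, 8.04 and 8.08 in necrotic, 6.98 and 7.07 in control fish oil and 7.48 and 7.08 in deficient fish oil kidneys. Early and necrotic arrays overlapped, and all 4 lay above the other 6.

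The zinc finger genes Egr1 and Egr2 were higher in both stages. Egr1, a growth factor-responsive activator, had a level (probe set 10800919) of 10.02 and 10.54 in control, 12.32 and 11.58 in early, and 11.95 and 11.87 in necrotic kidneys. Under fish oil it was at 10.75 and 11.18 with choline and at 11.59 and 10.71 without, so deficient fish oil replicate 1 reached 11.59 against 11.58 in early replicate 2. Egr1 was 1.67 ± 0.34 above control in early kidneys, short of the threshold (adjusted p = 0.0623), and rose by 1.63 ± 0.34 in necrotic kidneys (adjusted p = 0.00986). With dim probe sets left out at the 25th percentile the early difference passed (adjusted p = 0.0439). The necrotic call was lost without necrotic replicate 1 (adjusted p = 0.0519) or without control vegetable oil replicate 1 (adjusted p = 0.0748).

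Egr2, a relative of Egr1 known from myelination and lymphocytes, rose by 1.47 ± 0.18 in early and 1.18 ± 0.18 in necrotic kidneys (adjusted p = 0.00833 and 0.00238). Its values (probe set 10832802) were 6.18 and 6.48 in control, 8.06 and 7.53 in early, 7.50 and 7.53 in necrotic, 6.38 and 6.31 in control fish oil and 6.48 and 6.32 in deficient fish oil kidneys. Early and necrotic arrays met at 7.53, and the other 6 overlapped among themselves. Nr4a2, an orphan nuclear receptor, did not pass in any of the 8 comparisons. It read 8.17 and 8.45 in control, 8.20 and 8.21 in early, 7.90 and 8.12 in necrotic, 8.55 and 7.68 in control fish oil and 8.60 and 8.40 in deficient fish oil kidneys (probe set 10845384). Its difference was -0.10 in early kidneys (95% interval -0.67 to 0.47) and -0.30 in necrotic kidneys (-0.87 to 0.27), which leaves out a rise of the size seen in the other genes.

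Klf6 and Myc rose in both stages. Klf6, a Krüppel-like factor induced by injury, was at 8.46 and 8.42 in control, 9.96 and 10.19 in early, 10.01 and 9.96 in necrotic, 8.31 and 8.18 in control fish oil and 8.40 and 8.39 in deficient fish oil kidneys (probe set 10799291). Early and necrotic arrays overlapped far above the rest, with rises of 1.63 ± 0.12 and 1.55 ± 0.12 (adjusted p = 0.000904 and 9.63e-05). Myc, which drives growth and ribosome synthesis, was at 7.90 and 8.03 in control, 10.04 and 10.44 in early, and 10.14 and 9.90 in necrotic kidneys (probe set 10896814). In fish oil kidneys Myc was at 8.66 and 8.91 with choline and 8.94 and 8.70 without. It rose 4.84-fold in early and 4.15-fold in necrotic kidneys, by 2.27 ± 0.17 and 2.05 ± 0.17 (adjusted p = 0.0011 and 0.000149). All 4 fish oil arrays lay above the control vegetable oil arrays and below the early and necrotic ones.

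**Figure D2:**
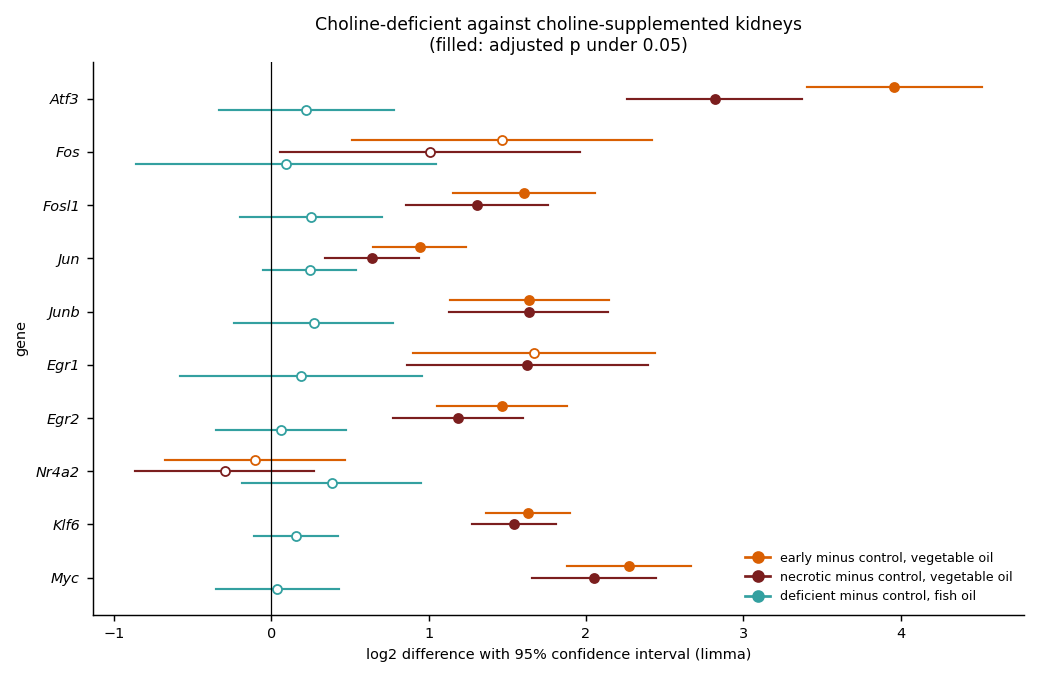
Log2 difference (horizontal axis) with its 95% confidence interval for each gene (vertical axis) in 3 comparisons of choline-deficient with choline-supplemented kidneys, filled where the adjusted p was under 0.05. The early and necrotic intervals overlap for every gene except Atf3, for which they are 3.40 to 4.52 and 2.26 to 3.37, and every fish oil interval includes 0; both vegetable oil comparisons use the same control arrays.

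The early calls did not all outlast the loss of an array. Atf3, Klf6 and Myc passed without either control vegetable oil array and also when only the early and control groups were fitted. The other 4 genes did not pass without control replicate 1 or without control replicate 2, so that the count fell from 7 to 3. Over all probe sets the higher calls went the same way, from 261 to 34 and 31. Without early replicate 2 the count stayed at 7, with Fos called and Junb not (adjusted p = 0.054).

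The direct comparison of necrotic with early kidneys asked whether the set differs between these groups, which were taken on the same day. Only Atf3 passed, against 5.08% of all probe sets that fell and 4.71% that rose. All 10 differences were below 0 in the deposited scale, with a median of -0.25 against 0.02 over all probe sets, but after a further quantile normalization Junb and Egr1 were above 0, at 0.06 and 0.07. In 4 genes the early arrays both lay above the necrotic arrays, namely Atf3, Jun, Egr2 and Nr4a2, against 21.2% of all probe sets. The differences of Fosl1, Egr2 and Myc were -0.30, -0.28 and -0.22, none past the threshold. The Atf3 call was lost without necrotic replicate 1 (adjusted p = 0.108), without necrotic replicate 2 (0.056), without early replicate 1 (0.145) and when only these groups were fitted (0.0717), while the difference stayed between -1.31 and -0.87 in these.

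Markers of the kidney's cells moved over the same pair of groups. The 14 proximal tubule genes averaged 12.81 and 12.87 on the control vegetable oil arrays, 12.65 and 12.38 on the early arrays and 10.91 and 10.61 on the necrotic arrays, against array medians of 7.28 to 7.43. In necrotic against early kidneys 13 of them fell, and in early against control kidneys 0 of 14 passed with limma (median -0.32), although 6 had an unadjusted p under 0.05. Acmsd, of tryptophan breakdown, Miox, of inositol breakdown, Slc34a1, the brush border phosphate carrier, and Slc22a8, an organic anion transporter, fell most between the stages, with differences of -4.14 ± 0.25, -3.87 ± 0.15, -3.26 ± 0.11 and -2.22 ± 0.30. The 12 macrophage genes averaged 8.57 and 8.69 in control, 9.15 and 9.62 in early and 10.27 and 10.29 in necrotic kidneys. Of these 1 rose in early against control kidneys, the lipopolysaccharide coreceptor Cd14. With limma 9 of the 12 had an unadjusted p under 0.05 in that comparison (median 0.75). In necrotic against early kidneys 6 rose and 1 fell. The 9 injured tubule genes averaged 9.92 and 9.99 in control, 11.35 and 11.73 in early and 12.21 and 12.27 in necrotic kidneys, with 5 rising in early against control and 3 in necrotic against early. Neutrophil genes passed in 0 of 10 cases in early against control with limma (3 at an unadjusted p under 0.05) and rose in 4 of 10 in necrotic against early, with array means of 5.90 to 5.94, 6.22 to 6.40 and 6.64 to 7.21. Fibroblast and smooth muscle genes averaged 10.05 to 10.09 in control, 10.09 to 10.26 in early and 11.05 to 11.26 in necrotic kidneys. With limma 1 of 10 rose in early against control, where 3 had an unadjusted p under 0.05, and 6 of 10 rose between the stages. The 9 endothelial genes averaged 10.24 to 10.43 in control, 9.96 to 10.13 in early and 9.88 to 9.996 in necrotic kidneys. With limma 0 of them passed in early against control, where 3 had an unadjusted p under 0.05, while 4 were lower in necrotic against control, and 3 were lower and 1 higher in necrotic against early. The part of these cells in the 10 genes' differences was not tested. Of 8 lymphocyte genes 0 passed with limma in either comparison, with 5 and 1 at an unadjusted p under 0.05.

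Fish oil kidneys asked whether lack of choline moved the set when the fat was menhaden oil. With limma 0 of the 10 genes passed and 0 had an unadjusted p under 0.05, against 0% and 3.55% of all probe sets. All 10 differences were above 0, between 0.04 for Myc and 0.38 for Nr4a2, with a median of 0.21. That sign turned in several of them when 1 array was left out. Nr4a2 turned without control fish oil replicate 2, where replicate 1 alone stood at 8.55 against a deficient mean of 8.50. Junb, Egr1 and Myc turned without control fish oil replicate 1. Deficient fish oil replicate 1 was above replicate 2 in 10 of 10 genes, and without it Atf3, Fos, Junb, Egr1, Egr2 and Myc were below the control, between -0.26 for Egr1 and -0.0049 for Junb. The upper 95% limits were 0.78 for Atf3, 0.42 for Klf6 and 0.43 for Myc, each below the rise of that gene in the early kidneys.

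The difference between the oils was tested as an interaction, the effect of choline deficiency in early vegetable oil kidneys minus that in fish oil kidneys. It passed for 3 of the 10 genes, Atf3 at 3.74 ± 0.35 (adjusted p = 0.0123), Myc at 2.24 ± 0.24 (0.0242) and Klf6 at 1.48 ± 0.17 (0.0282), against 0.0958% of all probe sets in that direction. Each of these calls was lost without any 1 of the 4 control arrays, where no probe set passed. With necrotic in place of early kidneys 5 passed, Atf3, Myc, Klf6, Junb and Egr2, against 3.82% of all probe sets in that direction. The direct comparison of the deficient diets without necrosis gave lower values under fish oil in 7 of 10 genes, against 1.39% of all probe sets. The difference was -3.68 ± 0.24 in Atf3 and -1.67 ± 0.12 in Klf6 (adjusted p = 0.000645 for each). That count was 2, Atf3 and Klf6, without deficient fish oil replicate 2, where the lower calls over all probe sets went from 406 to 79. It was 1, Atf3, when only these groups were fitted. Cell markers moved in the same comparison. Of the macrophage genes 9 of 12 were called lower under fish oil (median -1.10), and of the injured tubule genes 4 of 9 (median -0.85). Called lower were also 2 of 10 neutrophil, 2 of 10 fibroblast and smooth muscle and 1 of 14 proximal tubule genes. No gene of these lists was called higher, but the median of the proximal tubule list was above 0, at 0.24. Of 9 endothelial genes 0 passed with limma (median 0.28), with 3 at an unadjusted p under 0.05. The macrophage genes averaged 8.21 and 8.36 on the deficient fish oil arrays against 9.15 and 9.62 on the early arrays, and the injured tubule genes 10.45 and 10.02 against 11.35 and 11.73. The part of these cells in the differences between the oils was not tested.

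In choline-supplemented kidneys the oils differed in 0 of the 10 genes with limma, against 0.185% of all probe sets. One gene, Myc, had an unadjusted p under 0.05, against 12.4% of all probe sets, at 0.82 ± 0.17 above vegetable oil (adjusted p = 0.138). Both fish oil arrays lay above both vegetable oil arrays for Fosl1, Egr1 and Myc and below them for Jun and Klf6, against 28.7% and 21.7% of all probe sets.

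**Figure D3:**
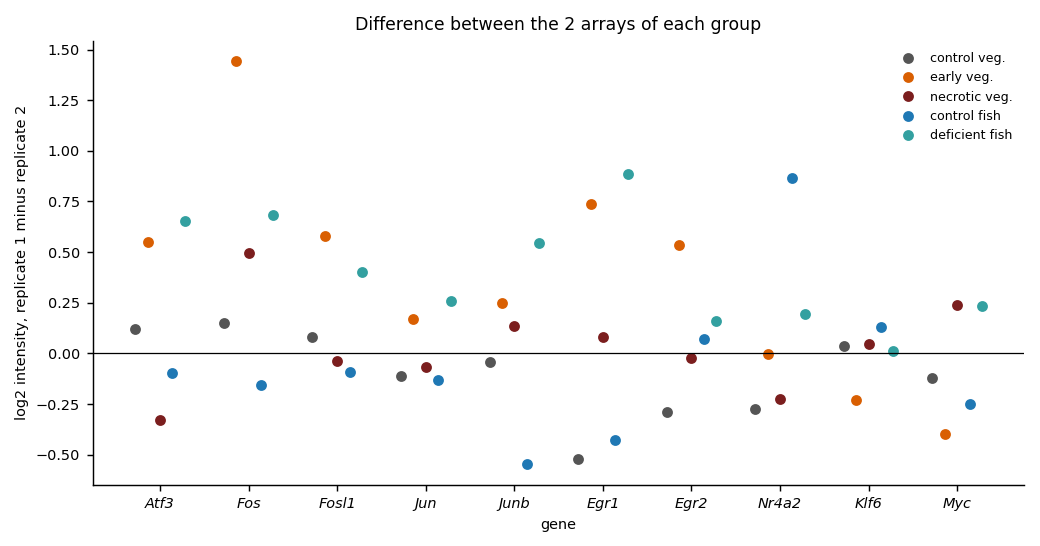
Log2 difference between replicate 1 and replicate 2 (vertical axis) of each group, in colours, for the 10 genes (horizontal axis). Fos differs most in the early kidneys, at 1.44, and all 10 genes are above 0 in the deficient fish oil kidneys.

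In every group the 2 pools differed from each other in some of the 10 genes. The median difference, replicate 1 minus replicate 2, was 0.39 in early and 0.33 in deficient fish oil kidneys. It was -0.08 in control vegetable oil, 0.01 in necrotic and -0.11 in control fish oil kidneys. Signs were mixed in the necrotic pools, with Fos at 0.50 and Atf3 at -0.33. Egr1 was at -0.52 in control vegetable oil kidneys. In control fish oil kidneys Junb was at -0.55, Egr1 at -0.43 and Nr4a2 at 0.865. Early replicate 1 exceeded replicate 2 by 1.44 in Fos, 0.74 in Egr1, 0.58 in Fosl1, 0.55 in Atf3 and 0.53 in Egr2, while Myc and Klf6 were higher in replicate 2, with differences of -0.40 and -0.23. In deficient fish oil kidneys replicate 1 exceeded replicate 2 by 0.89 in Egr1, 0.68 in Fos and 0.66 in Atf3, whereas 50.1% of all probe sets were higher there in replicate 1. After each group's mean was taken off, Fos and Fosl1 correlated at r = 0.925 over the 10 arrays, Jun and Egr1 at 0.961 and Atf3 and Fosl1 at 0.92. Klf6 against Fosl1 gave -0.716 and Myc against Fosl1 -0.314. These deviations come in pairs of opposite sign from 5 groups and are given as a description. Early replicate 2, lower in Fos, had the lower proximal tubule and higher macrophage mean of the early arrays, and the part of those cells was not tested.

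Across the 10 arrays the genes most like Atf3 were Csrnp1, a nuclear protein of immediate early type (r = 0.987), Egr2 (0.982), the phosphatase gene Ptpn2 (0.982), Pik3r1, a regulatory subunit of phosphoinositide 3-kinase (0.982), and Rasd1, a Ras-related GTPase induced by dexamethasone (0.981). Csrnp1 was at 8.51 and 8.55 in control, 9.85 and 9.65 in early and 9.49 and 9.27 in necrotic kidneys, the order that Atf3 had. Those most like Egr1 were Tnfrsf26 (0.946), Igfbp1, an insulin-like growth factor binding protein (0.94), Hs6st1 (0.939), Fosl1 (0.931) and Tspan4 (0.931). They were picked as the highest Pearson correlations among 14506 genes and share the same 10 arrays.

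Relatives and regulators of the set were counted without the 10 genes. Over all probe sets 0.893% rose and 0.236% fell in the early kidneys, and 10.2% rose and 10.7% fell in the necrotic kidneys. Between the stages 4.71% rose and 5.08% fell. Of 9 other AP-1 family genes, Fosl2, which encodes FRA2, rose in the early kidneys at 1.38 ± 0.17 (adjusted p = 0.00781), and 5 rose and 1 fell, Maf, in the necrotic kidneys. Fosl2 was at 9.72 and 10.03 in control, 11.10 and 11.42 in early and 11.43 and 11.31 in necrotic kidneys. Of 16 other ATF, CREB and C/EBP genes 4 rose in the early and 6 in the necrotic kidneys. In the early kidneys these were Cebpd and Cebpb, C/EBP factors of the acute phase, at 1.25 ± 0.15 and 1.24 ± 0.19, Trib3, a pseudokinase induced by ATF4, at 1.05 ± 0.18, and Atf4, the effector of the integrated stress response, at 0.84 ± 0.13. Between the stages Crem, a CREB relative, fell by 0.71 ± 0.16 (adjusted p = 0.0305).

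Of 17 other EGR, NR4A, KLF and IER genes 2 rose in the early kidneys, Ier3, a survival gene, at 1.40 ± 0.15 and Klf4 at 0.95 ± 0.15. In the necrotic kidneys 9 rose and 1 fell, against 10.2% and 10.7% of all probe sets. Of the relatives of Nr4a2, neither Nr4a1 at 0.69 ± 0.28 nor Nr4a3 at 0.63 ± 0.17 passed in the early kidneys (adjusted p = 0.299 and 0.138). In the necrotic kidneys Nr4a3 rose by 0.81 ± 0.17 (adjusted p = 0.00939) and Nr4a1 was at 0.81 ± 0.28 without passing (adjusted p = 0.0754). Between the stages 0 of the 17 passed with limma, and 4 had an unadjusted p under 0.05.

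A list of 23 genes held feedback inhibitors of MAP kinases and regulators of mRNA decay, and also Gadd45 genes, Sgk1 and Rgs2. Of these 23 genes 0 fell in either stage. In the early kidneys 4 rose and in the necrotic kidneys 10, against 0.893% and 10.2% of all probe sets. The early ones were Dusp8, a phosphatase of stress-activated kinases, at 1.35 ± 0.18, Gadd45g and Gadd45b at 1.34 ± 0.20 and 1.23 ± 0.22, and Dusp5, a phosphatase of ERK, at 0.90 ± 0.14. Between the stages Dusp8 fell by 0.77 ± 0.18 and Rgs2, an inhibitor of G protein signalling, rose by 0.95 ± 0.16. Of 19 MAP kinase, SRF and ETS genes 1 rose in the early kidneys, Map3k8 at 0.71 ± 0.11. In the necrotic kidneys 6 rose and 1 fell, against 10.2% and 10.7% of all probe sets.

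The listed partners and targets of MYC had smaller differences from control than Myc itself, and no test compared them with it. Of 10 other genes of the MYC network 0 passed in the early kidneys with limma (2 at an unadjusted p under 0.05). In the necrotic kidneys 3 fell, Mlx, Mlxipl and Mxi1, against 10.7% of all probe sets. Of 23 MYC targets of ribosome and polyamine synthesis 1 rose in the early kidneys, the nucleolar Nop56 at 0.63 ± 0.11 (median 0.29). With limma 11 of the 23 had an unadjusted p under 0.05 there. In the necrotic kidneys 7 rose and 2 fell (median 0.31), against 10.2% and 10.7% of all probe sets. Odc1, the ornithine decarboxylase of polyamine synthesis, was 1.04 ± 0.18 lower in necrotic than in early kidneys (adjusted p = 0.00928). Its arrays read 12.03 and 11.90 in control, 12.64 and 12.11 in early and 11.42 and 11.26 in necrotic kidneys, so that both necrotic pools lay below both controls.

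Genes known as AP-1 targets rose in 10 of 24 cases in the early kidneys (median 1.22), against 0.893% of all probe sets. In the necrotic kidneys 15 rose and 1 fell (median 1.44), against 10.2% and 10.7% of all probe sets. In the early kidneys the largest were Hmox1, which breaks down heme, at 2.66 ± 0.47, Tnfrsf12a, the TWEAK receptor, at 2.24 ± 0.16, Lif, an interleukin 6 family cytokine, at 2.16 ± 0.23, and Timp1, a metalloproteinase inhibitor, at 2.05 ± 0.29. In necrotic against early kidneys 6 of these genes were higher and 1 lower, against 4.71% and 5.08% of all probe sets, and no test compared the list with the 10 transcription factors. They included Hmox1 at 2.04 ± 0.47, the hyaluronan receptor Cd44 at 1.31 ± 0.30, and the EGF receptor ligand Ereg at 1.12 ± 0.16. The gelatinase Mmp9 was at 1.12 ± 0.24, with group means of 9.79 in control, 8.63 in early and 9.75 in necrotic kidneys. Its necrotic level thus lay near the control. Hmox1 was at 8.47 and 9.64 in control fish oil and 9.63 and 8.34 in deficient fish oil kidneys. On vegetable oil arrays it read 6.93 and 6.93 in control and 9.23 and 9.95 in early kidneys, so its fish oil and early arrays overlapped. The list was written from general knowledge, but with earlier results of these data known. Several of its genes are also expressed by macrophages, and whether AP-1 acts on them here was not tested.

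**Figure D4:**
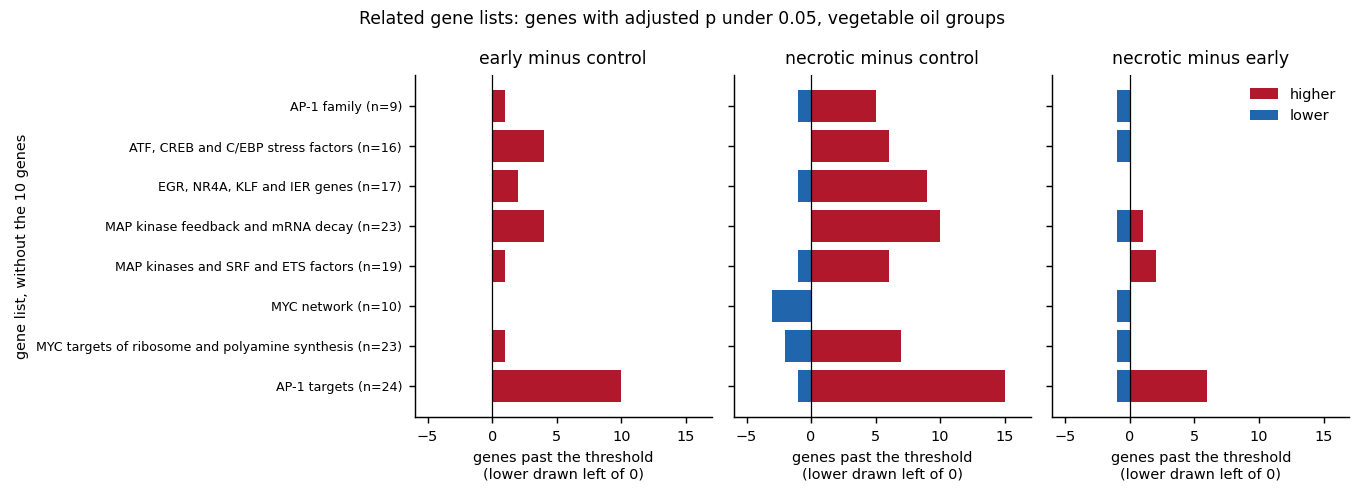
Number of genes past an adjusted p of 0.05 (horizontal axis, higher to the right of 0 and lower to the left) in 8 related gene lists without the 10 genes (vertical axis, with the number measured) for 3 comparisons of vegetable oil kidneys. AP-1 targets have 10 higher in early and 15 higher in necrotic kidneys against control, and between the stages 6 higher and 1 lower.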

How the data were processed

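The values are log2 intensities per probe set, deposited by the authors; the submitters' processing notes name RMA, which subtracts background, equalises quantiles and summarises probes by median polish. Which program ran it is not given in the sources used here. Of 29214 probe sets 15310 carry 1 symbol in the platform annotation, and 15279 of these matched the current gene table by Entrez number, with 0 symbols changed. Values were used without further scaling or filtering, so precision is limited by how few arrays there are. All 5 groups entered one fit with lmFit and eBayes of limma 3.58.1 under R 4.3.3 (5 residual degrees of freedom, 3.59 from the prior). Each of 8 contrasts was adjusted over all probe sets by the Benjamini-Hochberg method at 0.05. Tested on simulated data drawn with the measured spread, log2 changes of 1.5 in 200 of 29214 probe sets were recovered at 84.8% for early against control and 62.3% for the early interaction. The members and gene lists were chosen with earlier results of these data known. All 10 members are named, with up to 4 called genes of each list by size of difference in early against control and necrotic against early, and the 5 genes most correlated with Atf3 and with Egr1. A few relatives (Nr4a1, Nr4a3, Maf, the fallen MYC network genes) were added after their values were seen. Genes with several probe sets were represented by the one with the highest mean. The labels give replicate numbers but no pairing, and between-array differences of the groups correlated at -0.173 to 0.136, so no pairing was used. Promoters and figures were handled in Python 3.11.15 (pandas 2.3.3, matplotlib 3.10.9).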

Additional observations from a re-analysis of the deposited data

Results flagged for a closer look

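The effect of choline deficiency differed between the oils by a test of the interaction in 8 results for these genes. For early kidneys the interaction was 3.74 in Atf3, 1.48 in Klf6 and 2.24 in Myc. For necrotic kidneys it was 2.59 in Atf3, 1.37 in Junb, 1.12 in Egr2, 1.39 in Klf6 and 2.01 in Myc, with adjusted p of 0.0037, 0.0313, 0.0307, 0.00235 and 0.00246 in limma. Both sets use the same fish oil and control arrays. The Junb call of the necrotic set was lost without any of 6 arrays, and the Egr2 call without any of the 8 and under each of the 3 other scalings.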

How the results depend on the processing

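The settings tried were median centring, a further quantile normalization, cyclic loess, a trend and robust prior, leaving out dim probe sets below the 25th or the 50th percentile, the compared groups alone, the mean of a gene's probe sets, the replicate block and leaving out each array of a comparison. With the compared groups alone the members called were 4 in early against control, 0 in necrotic against early and 1 in fish against vegetable oil without choline. With the replicate block the early interaction called 1 member, and the number of members called in other comparisons stayed within 1.5 times. Leaving out 1 array gave 3 to 7 members in early against control, 0 to 2 in necrotic against early, 2 to 8 in fish against vegetable oil without choline, 0 to 3 in the early and 3 to 5 in the necrotic interaction. Median centring moved the median of all probe sets in necrotic against control from 0.06 to -0.04.

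Signs that turned belonged to differences that had not passed. In necrotic against early Junb was 0.059 and Egr1 0.066 after a further quantile normalization, and without 1 array Junb ran from -0.13 to 0.12, Fos from -1.18 to 0.26, Egr1 from -0.41 to 0.33 and Klf6 from -0.20 to 0.026. In early against control Nr4a2 ran from -0.24 to 0.034 without 1 array. Between the control diets Egr2 was -0.078 after a further quantile normalization and -0.086 after cyclic loess, and without 1 array it ran from -0.13 to 0.16, Atf3 from -0.0024 to 0.12, Junb from -0.53 to 0.022 and Nr4a2 from -0.63 to 0.24. Under fish oil the differences without 1 array ran from -0.10 to 0.55 in Atf3, -0.25 to 0.43 in Fos, -0.0052 to 0.54 in Junb, -0.26 to 0.63 in Egr1, -0.016 to 0.14 in Egr2, -0.086 to 0.16 in Myc and -0.048 to 0.82 in Nr4a2. The cause was not tested.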
